A study of Mus musculus with 6 samples.

Results

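Kinesins are motor proteins that use ATP to move along microtubules or to take them apart, and the mouse genes for them carry symbols of the form Kif or Kifc with a number. The genes were taken from the deposited table of per-gene values by those symbols alone, and 41 of its 23281 genes fitted. Of these, 33 had a mean of at least 100 reads over the 6 libraries and were measured. The read minimum is the only measured value in the rule, which was set with earlier results of these data known. They were sorted by textbook role into mitotic kinesins (13 of 14 measured), transport kinesins (15 of 17) and a group of ciliary and other kinesins (5 of 10). The 8 genes below the read minimum were Kif2b among the mitotic kinesins, Kif17 and Kifc2 among the transport kinesins, and Kif6, Kif9, Kif12, Kif19a and Kif27 in the last group, with means of 0.167 to 63.5 reads.

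The cells were embryonic stem cells of a female mouse line with the strain background 129S X Cast. In all of them the TetOn promoter, which responds to doxycycline, stood in place of the Xist promoter on the 129S allele, and a Bgl stem-loop had been added at the 3' end of Xist. The sample titles begin with BglHalo_Xist, and the labels do not say what Halo stands for. Every culture was first induced for 17.5 to 20 h with 1 µg/ml doxycycline and afterwards labelled with 500 µM 4-thiouridine (4sU, a uridine analogue that cells build into new RNA) for 4 h in the presence of doxycycline. The label was then chased with 50 mM uridine, with doxycycline kept in the medium, for 0, 30, 60, 90, 120 or 150 min; the 0 min culture was not washed. Feeder cells had been removed by pre-plating, nuclei were isolated, and 1 library of nuclear RNA was sequenced per washout time. There was no untreated culture and no replicate, and the series was set up to ask for the half-life of Xist RNA. The values of the kinesins therefore describe RNA in the nucleus, where degradation, export and dilution by new RNA cannot be told apart.

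A kinesin holds a motor domain that binds microtubules and a tail that binds cargo or a partner. Mitotic kinesins build the spindle, align chromosomes and drive cytokinesis, and many of their genes are transcribed mainly in the late cell cycle. Transport kinesins carry vesicles, organelles and ciliary components in cells of every kind and are best known from neurons. Embryonic stem cells divide fast and do not form axons.

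Alkylated 4sU is read as cytosine, so labelled RNA shows as T-to-C (T>C) changes. The authors' labelled share is their posterior mean of the fraction of a gene's reads that come from labelled RNA. The T>C rate is the number of T>C conversions divided by the covered T positions. Libraries held 18558073 to 28535162 reads, of which the 33 kinesins took 41419 to 57470. Over all genes the T>C rate was, in order of washout time, 4.05%, 2.69%, 4.11%, 2.57%, 1.55% and 1.17%, so the 60 min library stood above the 30 min library. The share was higher at 60 min than at 30 min for only 15 of the 33 kinesins. Its median over all genes tested was 45.8% at 30 min and 44.5% at 60 min.

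All 8 embryonic stem cell markers were present (summed CPM, the count scaled to library size, 2558 to 3042). Of 10 fibroblast feeder markers, only Lum was at or near 0 in each library, and the list summed to 3137 to 4659 CPM, mostly Fn1 and Vim. The others had reads in every library: Col1a1 75.3 to 122 CPM, Col1a2 100 to 166, Thy1 36.5 to 61.1 and Pdgfra 54.0 to 85.3. Col3a1, Twist1 and Twist2 lay between 4.65 and 31.4 CPM. Of 6 neuron markers, Rbfox3, Snap25 and Syt1 were below 1 CPM in every library, and the list summed to 190 to 284 CPM, mostly Stmn2 and Tubb3. The 4 ciliated cell markers summed to 7.78 to 18.4 CPM. The part of feeder or other cells in the kinesin values was not tested.

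Labelled kinesin RNA declined over the washout in 20 of the 33 genes and rose in none (limma, slope of the natural log of the share on time, Benjamini-Hochberg adjusted over 11462 genes). The shares called in these directions among all genes were 52.0% and 1.26%. The 20 genes were 8 of 13 mitotic kinesins, 7 of 15 transport kinesins and all 5 of the third group. The mitotic and transport counts (61.5% and 46.7%) thus lay close to the share of all genes, on either side of it. The median decay rate was 0.417 per h for mitotic kinesins, 0.178 per h for transport kinesins and 0.356 per h for the others, against 0.247 per h over all genes tested. As times for the share to halve, these medians correspond to 99.7, 233.5, 116.8 and 168.1 min.

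**Figure D1:**
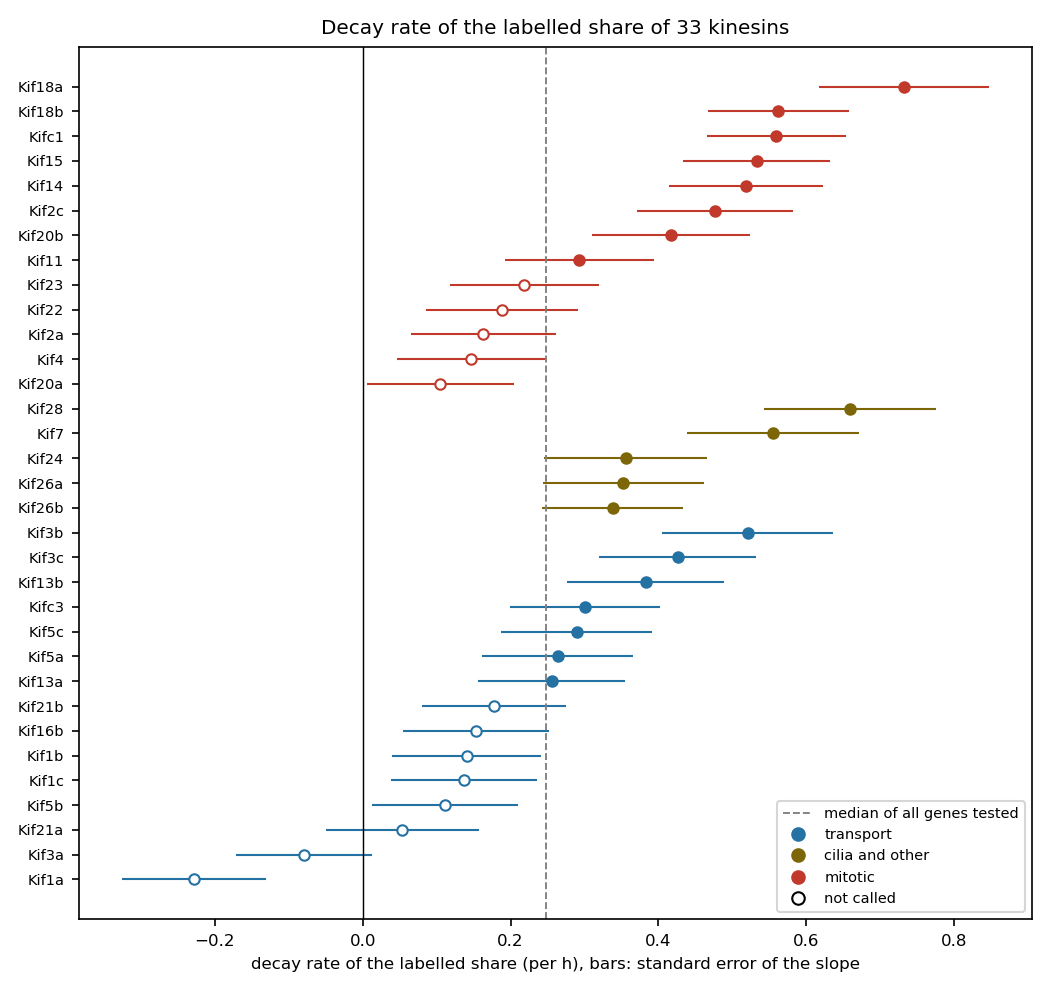
Decay rate of the labelled share (per h, x axis) for each of the 33 measured kinesins, grouped by role; points are the slopes over 6 libraries, bars 1 standard error, open points genes that were not called. Mitotic rates run from 0.105 (Kif20a) to 0.732 (Kif18a) and transport rates from -0.228 (Kif1a) to 0.521 (Kif3b); the dashed line is the median of all genes tested, 0.247.

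Among the mitotic kinesins, the motors with the fastest loss were Kif18a, Kif18b and Kifc1. Kif18a (ENSMUSG00000027115; mm10 chromosome 2, 109280738 to 109341747, plus strand), a kinesin-8 that limits chromosome movements at the metaphase plate, had a labelled share of 79.6%, 59.1%, 69.6%, 41.6%, 21.6% and 12.5% at 0, 30, 60, 90, 120 and 150 min. Its decay rate was 0.732 ± 0.115 per h (SE, 6 libraries; limma adjusted p = 4.49e-05), which is a half-life of 56.8 min (1 SE range 49.1 to 67.4). The posterior 5% to 95% range was 77.4 to 81.7% at 0 min and 10.6 to 14.4% at 150 min, so the late libraries lay far below the early ones. Kif18b, its close relative on chromosome 11, went through 89.7%, 65.7%, 82.2%, 53.6%, 34.6% and 20.1%, which gave a half-life of 74.0 min (1 SE range 63.3 to 89.2; limma, adjusted p = 8.23e-05).

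Kifc1 (ENSMUSG00000079553; chromosome 17, 33875659 to 33890661, minus strand), a minus-end-directed motor that gathers microtubules at spindle poles, was the most abundant kinesin per length, at a mean of 76.0 CPM per kb. Its share was 89.4%, 69.0%, 88.5%, 53.9%, 32.3% and 22.0% in time order. Its half-life was 74.3 min (1 SE range 63.7 to 89.3; limma, adjusted p = 7.33e-05). The table also listed Kifc5b, a near copy of Kifc1, with a mean of 1246.5 reads, and the sharing of reads that fit both is a point not given in the sources used here.

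Kif15, a motor that helps to keep spindle poles apart, was lower at 30 min than at 0 min and higher again at 60 min. Its values were 52.8%, 41.3%, 47.9%, 28.1%, 21.0% and 13.7%, for which the half-life was 78.1 min (limma, adjusted p = 0.00018). Kif18a, Kif18b, Kifc1 and Kif14 showed the same dip at 30 min, and its cause was not tested. Kif14, which acts in cytokinesis, and Kif2c, a kinesin-13 that takes microtubules apart at centromeres, had half-lives of 80.3 and 87.2 min. Kif20b, a motor of cytokinesis with a mean of 3505 reads, held its share until 60 min and then lost it. Its values were 53.1%, 53.8%, 54.0%, 43.9%, 28.8% and 18.7%, for which the half-life was 99.7 min (limma, adjusted p = 0.0028). Kif11, the kinesin-5 that pushes spindle poles apart, held 53.8%, 59.2%, 55.3% and 55.4% through 90 min, then fell to 39.2% and 24.7%. Its half-life was 142 min (1 SE range 106 to 217; limma, adjusted p = 0.0196), the longest among the called mitotic kinesins.

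The other 5 mitotic kinesins missed the test, with means of 1143 to 3197 reads. Kif23, the motor of the centralspindlin complex at the midzone, had shares of 42.6%, 48.6%, 36.0%, 42.1%, 31.1% and 25.1% (limma adjusted p = 0.0759), and passed the test without the 60 or the 90 min library (0.224 and 0.232 per h). Kif22, a chromosome-binding motor, had 43.0%, 46.6%, 44.3%, 48.6%, 31.1% and 27.9%. Kif2a, a kinesin-13 like Kif2c, had 37.3%, 39.3%, 34.5%, 40.3%, 28.2% and 24.9%. In each of these series the 120 and 150 min libraries were the lowest and the first 4 showed no steady direction.

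Kif4, a chromosome-binding motor that also shapes the midzone, had 42.7%, 54.7%, 45.0%, 51.1%, 39.2% and 30.4%. Kif20a, which carries the chromosomal passenger complex to the midzone, had the slowest loss of the class: 42.4%, 46.1%, 38.4%, 45.5%, 40.5% and 30.7%, a rate of 0.105 ± 0.0995 per h (SE, 6 libraries; limma adjusted p = 0.400). Adjusted p for Kif22, Kif2a and Kif4 in limma were 0.134, 0.171 and 0.235. Kif20a lies opposite Cdc23, Kif2a opposite Dimt1 and Kif4 opposite Pdzd11, and the use of strand in the counting is a point not given in the sources used here.

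Among the transport kinesins, the kinesin-2 motors of ciliary transport included the fastest and some of the slowest values. Kif3b (ENSMUSG00000027475; chromosome 2, 153291413 to 153333390, plus strand) had shares of 61.2%, 61.7%, 63.1%, 47.5%, 33.1% and 15.2%, a half-life of 79.9 min (1 SE range 65.4 to 103; limma, adjusted p = 0.000831). Kif3c had 60.9%, 65.8%, 63.3%, 53.0%, 38.7% and 19.6%, for which the half-life was 97.6 min (limma, adjusted p = 0.00217). Both stayed above 60% through 60 min and dropped afterwards. Kif3a, which pairs with either of them in the motor, had 22.1%, 23.2%, 17.9%, 29.9%, 27.3% and 23.9%, with no fall over the series (rate -0.08 ± 0.0919 per h; limma adjusted p = 0.497).

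The heavy chains of conventional kinesin, Kif5a, Kif5b and Kif5c, carry mitochondria and many vesicles. Kif5b, the broadly expressed one and the kinesin with the most reads (mean 5186), had 41.0%, 47.6%, 42.6%, 46.0%, 36.8% and 31.9%, and missed the test (limma adjusted p = 0.366). Kif5c had 47.3%, 53.5%, 46.2%, 44.5%, 30.7% and 24.2%, for which the half-life was 144 min (limma, adjusted p = 0.0222). Kif5a, known from neurons and here at a mean of 153.5 reads, had 57.7%, 47.3%, 46.1%, 50.9%, 27.8% and 30.9%, for which the half-life was 158 min (limma, adjusted p = 0.0351). Its share was already lower at 30 min than at 0 min. The 30, 60 and 90 min values did not decline in order, and the largest drop came between 90 and 120 min.

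Kif13a and Kif13b, which carry membrane cargo, both fell. Kif13a had 41.6%, 43.1%, 44.3%, 37.5%, 26.8% and 23.4% (half-life 163 min, the longest called among the kinesins; limma adjusted p = 0.0371), and Kif13b had 49.7%, 47.5%, 49.0%, 43.0%, 27.4% and 18.6% (half-life 109 min). Kifc3, a minus-end-directed motor, had a half-life of 138 min. Kif1b and Kif1c, kinesin-3 motors of vesicle transport with 2339 and 2713 reads on average, missed the test (limma adjusted p = 0.256 and 0.258). Kif1b had 40.8%, 41.7%, 41.3%, 45.3%, 33.8% and 27.7%, and Kif1c had 38.7%, 34.4%, 40.7%, 39.4%, 29.8% and 26.3%. Kif16b, Kif21a and Kif21b also missed it, with rates of 0.153, 0.0538 and 0.178 per h.

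Kif1a, the kinesin-3 that carries synaptic vesicle precursors in axons, had the lowest share of all kinesins at 0 min, 9.06% (posterior 5% to 95% range 7.60 to 10.6%). It read 10.7%, 7.89%, 15.3%, 13.2% and 15.5% (11.3 to 20.2%) in the later libraries. The last 3 libraries thus lay above the first 3, and the rate was -0.23 ± 0.0973 per h (SE, 6 libraries; limma adjusted p = 0.0560). It was called as rising without the 60 min library (-0.20 per h), with the 30 and 60 min times exchanged (-0.26 per h) and with a read minimum of 300. As labelled abundance, the share multiplied by scaled CPM, its rate was 0.0552 per h. Its total reads went the other way, from 33.4 CPM at 0 min to 23.9, 25.8, 23.4, 16.5 and 15.8 CPM. The neuron markers with reads showed shares at 0 min of 21.2% (Stmn2), 21.5% (Map2) and 73.5% (Tubb3). Between 0 and 150 min Stmn2 went from 178 to 126 CPM and Map2 from 24.5 to 15.9 CPM, while Tubb3 went from 56.1 to 58.8 CPM. The other 3 neuron markers stayed below 1 CPM. Among feeder markers, shares at 0 and 150 min were 8.98% and 12.7% (Col1a1), 9.61% and 13.3% (Col1a2) and 10.3% and 14.6% (Fn1). Col3a1, Thy1 and Vim also ended above their start, while Twist1, Twist2 and Pdgfra ended below it. The stem cell marker Dppa5a had 8.49% and 10.4%. Pou5f1 and Tdgf1 ended above their start too, and the other stem cell markers below it. The part of other cells in the values of Kif1a was not tested.

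The 5 ciliary and other kinesins all lost label. Kif28, a kinesin-3 with 108.3 reads on average, had 77.9%, 60.7%, 62.7%, 40.2%, 33.1% and 12.2% (half-life 63.1 min, 1 SE range 53.7 to 76.5; limma adjusted p = 0.00011), and its posterior range at 150 min was 6.73 to 18.8%. It overlaps Ahctf1, a gene on the same strand with 6769 reads on average. Kif7, a regulator of Hedgehog signalling at the tip of the cilium, had 63.4%, 54.2%, 69.5%, 44.7%, 25.5% and 15.6% (half-life 74.9 min; limma adjusted p = 0.000511), and lies opposite Ticrr, which had 3360 reads on average.

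Kif24, which restrains the formation of cilia, had 49.7%, 51.6%, 50.1%, 49.6%, 31.4% and 19.3%, a half-life of 117 min. Kif26a and Kif26b, atypical kinesins that bind microtubules without moving along them, had half-lives of 118 and 123 min. Kif26a had 49.0%, 47.2%, 52.0%, 46.2%, 28.6% and 19.7%, flat to 90 min as in Kif24. Kif26b had 60.3%, 55.5%, 53.5%, 41.1%, 33.9% and 26.2%, lower in each library than in the one before.

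**Figure D2:**
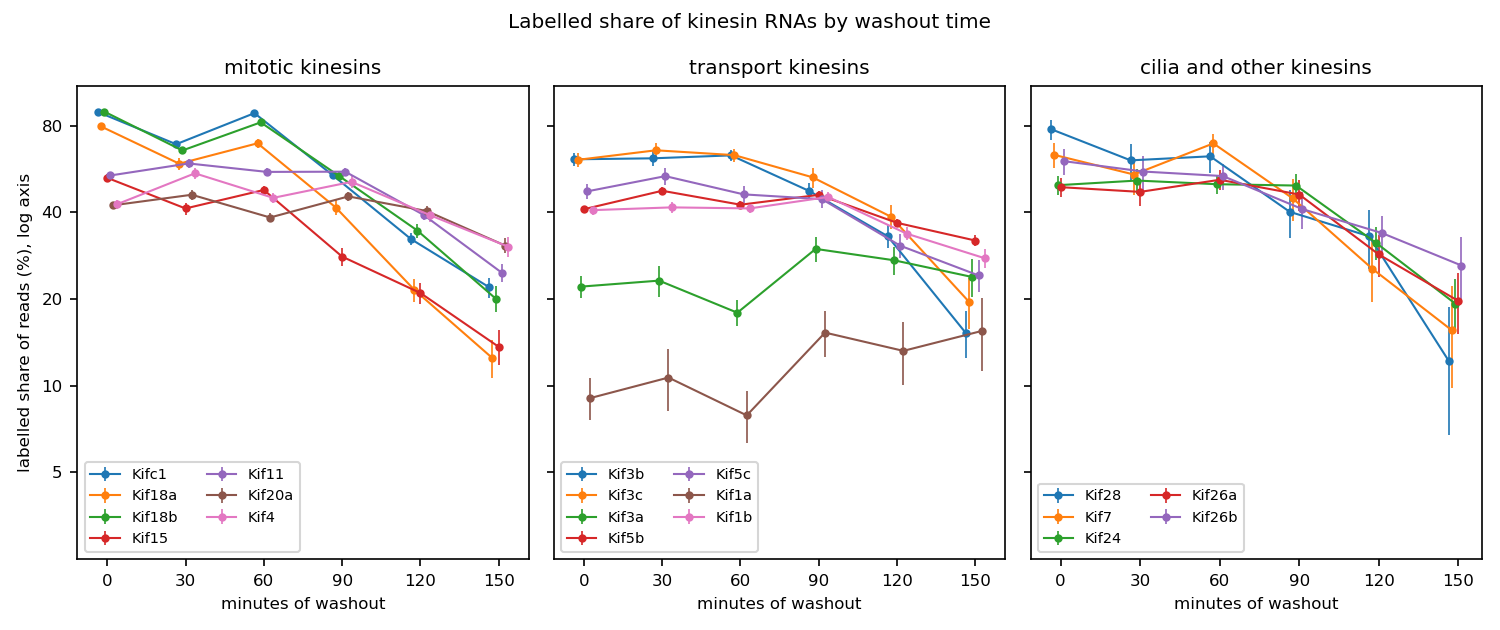
Labelled share (%, log axis) against minutes of washout for selected kinesins of each role; points are 1 library each and bars the authors' posterior 5% to 95% range. Kif18a, Kif15 and Kif28 ended at 12.5%, 13.7% and 12.2%, Kif11 and Kif3b held their share to 60 or 90 min before falling, and Kif1a ended above its start.

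The shape of the decline was shared. In all 33 kinesins the share at 150 min was a smaller fraction of that at 90 min than the 90 min share was of that at 0 min. The same held for 90.5% of all genes tested, so it did not set the kinesins apart. In 12 of 33 the share at 90 min was at or above that at 0 min (39.7% of all genes). Among the 20 called kinesins, 12 still held at least 0.75 of their starting share at 90 min. The same count among all called genes was not computed. The median ratio of the 90 min to the 0 min share was 0.943 over the 33 kinesins and 0.898 over all genes tested. Kif28, Kif18a and Kif15 had fallen to 0.516, 0.522 and 0.532 of their starting share by 90 min, and Kif11 stood at 1.03. A single rate per gene is therefore a summary of a curve that bends on the log scale, and half-lives depend on the late libraries.

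Without the 150 min library, 8 kinesins were called (31.1% of all genes): Kif14, Kif15, Kif18a, Kif18b, Kif2c and Kifc1 among the mitotic kinesins, Kif7 and Kif28 in the third group, and no transport kinesin. When each library was weighted by the width of the posterior, 8 were called as well (29.7% of all genes), 6 of them mitotic and none of them transport. Kif14, Kif15, Kif18a, Kif18b and Kif28 kept their call in every alternative in which they could be fitted. Kif5a kept its call in 4 of 12 alternatives, Kif13a in 6 of 13, Kif11 and Kif5c in 7 of 13 and Kifc3 in 8 of 13.

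Shares at the end of the washout differed less between kinesins than at its start. They spanned 9.06% to 89.7% at 0 min and 12.2% to 32.0% at 150 min. Spearman's rho across the 33 genes between the shares at 0 and 150 min was -0.44, and the decay rate followed the share at 0 min with a rho of 0.92 (0.91 across all 11462 genes). These are descriptions across genes that share the same 6 libraries, and the rate is computed in part from the 0 min share. Genes are not independent replicates.

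**Figure D3:**
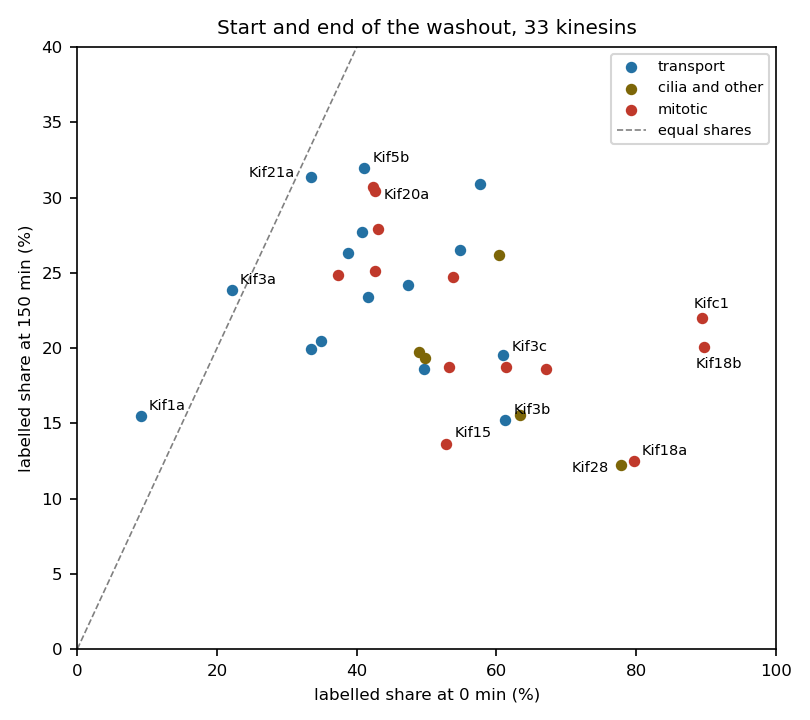
Labelled share at 0 min (x axis, %) against that at 150 min (y axis, %) for the 33 kinesins; each point is 1 gene, from 1 library on each axis, and the dashed line marks equal shares. Kif1a and Kif3a are the genes above the line, and Kifc1 and Kif18b have the highest starting shares, 89.4% and 89.7%.

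The share at 0 min also gives a half-life of its own, if a steady state and full labelling over 4 h are assumed. On that scale Kif18b and Kifc1 had 73.2 and 74.2 min, close to their 74.0 and 74.3 min in the washout. In the other 18 of the 20 called kinesins the uptake half-life was the longer one, and the median ratio of uptake to washout half-life over the 20 was 1.85. Over all genes tested the median was longer in uptake too, 264 min against 168.1 min from the median decay rate. The largest ratio was that of Kif15, with 222 against 78.1 min. Kif18a had 105 min, Kif11 216 min, Kif5b 315 min and Kif1a 1752 min. The medians were 219 min for mitotic kinesins, 315 min for transport kinesins, 180 min for the others and 264 min over all genes tested. As in the washout, transport kinesins lay above all genes and the other 2 classes below. Across the 20 called kinesins the washout and uptake half-lives had a Spearman's rho of 0.78, and both use the 0 min library.

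The T>C rate gave more calls. It fell in 25 of 33 kinesins (limma, adjusted over 11459 genes; 69.0% of all genes) and rose in none: 11 of 13 mitotic, 9 of 15 transport and 5 of 5 other kinesins. Beside the 20 genes above, these were Kif2a, Kif22, Kif23, Kif16b and Kif21b. For Kif18a the rate was, in time order, 8.49%, 3.78%, 7.20%, 2.84%, 1.24% and 0.676%. For Kif1a it was 1.08%, 0.770%, 1.17%, 1.41%, 0.714% and 0.856%. The highest T>C rate was in the 60 min library in 24 of 33 kinesins. The median rate over all genes tested was highest there too, 5.04% against 4.70% at 0 min. How many of all genes had their highest rate at 60 min was not computed. The median decay of the T>C rate was 0.674 per h for mitotic, 0.429 per h for transport and 0.713 per h for other kinesins, and 0.512 per h over all genes. Without the 150 min library only Kif15 was called (9.43% of all genes). The T>C rate and the share come from the same reads and are not independent of each other.

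Levels per length differed between the classes. Mean CPM per kb had a median of 21.0 for mitotic kinesins (5.28 to 76.0), 6.00 for transport kinesins (1.04 to 37.1) and 1.89 for the others (0.719 to 3.05), against 10.7 over all genes tested. After Kifc1, the highest levels were those of Kif18b at 39.4, Kif20a at 38.1 and Kif5b at 37.1 CPM per kb.

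Total reads of kinesins changed with washout time in none of the 39 kinesins tested with edgeR's quasi-likelihood test (adjusted over 15743 genes; 0% of all genes called). At an unadjusted p below 0.05, 13 of the 33 measured kinesins passed, beside 24.1% of all genes with at least 100 reads and 21.7% of all 15743 genes, and 9 of them had positive slopes. DESeq2 called 5 (4.53% of all genes): Kif20b and Kif26b with positive slopes, and Kif15, Kif1a and Kif21b with negative ones. Without the 60 min library edgeR called 10 (9.19% of all genes): Kif11, Kif18a, Kif20b, Kif2a, Kif2c, Kif5b and Kif26b with positive slopes, and Kif15, Kif1a and Kif21b with negative ones. With the 30 and 60 min times exchanged edgeR called 13 (18.3% of all genes), without both of these libraries 6 (3.63%) and without a filter on low counts 3 (1.71%). The lowest CPM was in the 60 min library for 10 of 13 mitotic and 4 of 15 transport kinesins, against 30.3% of all genes tested. The highest was in the 150 min library for 17 of 33 kinesins (23.2% of all genes). The 2 shares over all genes were taken from counts per library total without the TMM adjustment used for the kinesins.

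Values of single genes show the size of these differences. Kif20b read 118, 135, 92.6, 171, 190 and 207 CPM in order of time, so its last 3 libraries lay above its first 3. Its slope was 0.36 ± 0.0976 log2 units per h (SE, 6 libraries; edgeR adjusted p = 0.104). Kif18a had 39.6, 48.6, 30.9, 56.4, 57.8 and 64.0 CPM and Kif5b 191, 217, 155, 234, 262 and 284 CPM in the same order. Both were lowest at 60 min and highest at 150 min. Kifc1 had 184, 212, 191, 184, 161 and 139 CPM, Kif15 had 99.0, 99.4, 103, 76.7, 74.7 and 70.5 CPM, and Kif21b, a motor that slows microtubule growth, had 18.6, 17.0, 19.5, 14.9, 10.2 and 9.63 CPM. In Kif15 and Kif21b the last 3 libraries lay below the first 3.

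**Figure D4:**
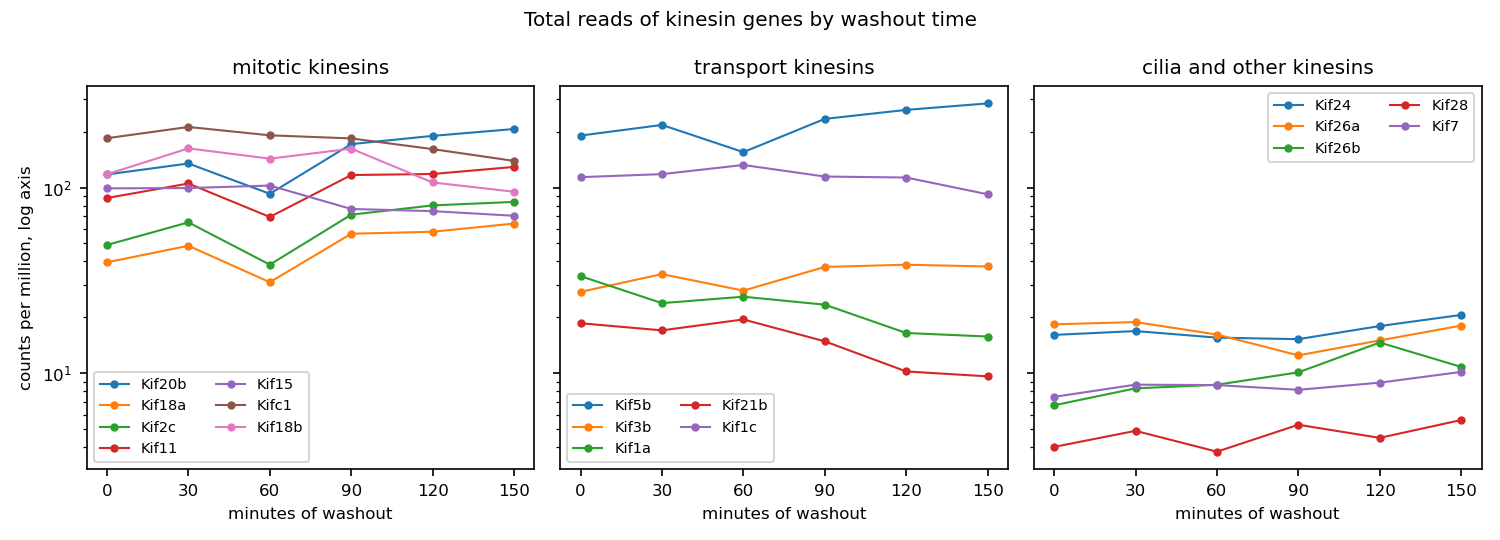
Total reads (CPM, log axis) against minutes of washout for selected kinesins of each role; each point is 1 library. Kif20b goes from 118 to 207 CPM and Kif5b from 191 to 284 CPM with a dip at 60 min, while Kif1a goes from 33.4 to 15.8 CPM.

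The class difference was also computed for labelled abundance, the share multiplied by scaled CPM. Whether changes in total reads account for the class difference in the share was not tested. Labelled abundance is labelled RNA relative to its library, in place of labelled relative to all RNA of the gene. On that scale the median rate was 0.187 per h for mitotic and 0.192 per h for transport kinesins. Mitotic minus transport was -0.005 per h on this scale and 0.239 per h for the share, and 14 of 33 kinesins were called beside 48.5% of all genes: 5 mitotic, 5 transport and 4 others. The labelled abundance of Kif21b declined: its rate was 0.469 per h and it was called as falling. Calls were lost by Kif11, Kif20b and Kif2c of the mitotic kinesins, by Kif13a, Kif5a and Kif5c of the transport kinesins, and by Kif26b.

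Relatives from the same family were compared directly, as the slope on time of the log ratio of their shares, with an exact two-sided permutation test over the 720 orderings of the libraries. The 15 pairs in 9 families were chosen after the single-gene values had been seen, and 3 passed after Benjamini-Hochberg adjustment over the 15. Kif2c lost label faster than Kif2a by 0.314 per h (Kif2a minus Kif2c: -0.31; exact p = 0.00556, adjusted 0.0417). Kif5c lost it faster than Kif5b (Kif5b minus Kif5c: -0.18 per h; exact p = 0.00278, the smallest these orderings allow; adjusted 0.0417). Kif18a lost it faster than Kif18b (Kif18a minus Kif18b: 0.17 per h; exact p = 0.00833, adjusted 0.0417). The 3 differences kept their direction without any one library, but the adjusted call was lost in 16 of 18 such fits. It was kept for Kif2a and Kif2c and for Kif5b and Kif5c without the 60 min library. With 5 libraries the smallest possible p is 0.017.

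Other gaps of similar or larger size missed the adjusted threshold. Kif3a and Kif3b differed by -0.60 per h and Kif20a and Kif20b by -0.31 per h (exact p = 0.025 for each, adjusted 0.0509). Kif1a and Kif1b differed by -0.37 per h (exact p = 0.0306, adjusted 0.0509). The smallest gaps were those of Kif1b and Kif1c, 0.004 per h, with -0.019 to 0.033 when single libraries were left out, and of Kif26a and Kif26b, 0.015 per h, with -0.071 to 0.077.

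Promoters were read from RefSeq starts on GRCm38.p6, because many mitotic genes share promoter motifs. Of the 41 kinesins, 32 had an entry; the missing ones were Kif5a, Kif5b, Kif13b, Kif19a, Kif20a, Kif21b, Kif28, Kifc2 and Kifc3. The 250 bases before the start were searched on both strands for CCAAT, read as ATTGG from the other strand, which the factor NF-Y binds. They were also searched for TTTGAA, read as TTCAAA from the other strand, the core of an element of cell cycle genes called CHR. The first start listed for each gene was used, and in Kif14, Kif17, Kif27 and Kif2c it lies over 1000 bases inside the annotated gene. CCAAT stood in 8 of 13 mitotic promoters (61.5%), 3 of 11 transport promoters (27.3%) and 34.5% of 27025 promoters. TTTGAA stood in 5 of 13 mitotic promoters (38.5%), 0 of 11 transport promoters and 16.3% of all. Of the 8 ciliary and other promoters, 4 held CCAAT (50.0%) and 2 held TTTGAA (25.0%). Both motifs stood in Kif11, Kif14 and Kif22 of the mitotic kinesins (23.1%), in Kif26b and Kif27 of the ciliary and other kinesins (25.0%), in no transport promoter and in 5.73% of all promoters. The counted matches of Kif14 (both motifs), Kif2c (TTTGAA) and Kif27 (both motifs) come from starts 1505, 3867 and 4175 bases inside the annotated gene. The 120 bases before the start are shown for the 3 mitotic kinesins with the fastest loss, for Kif15 and Kif11, and for Kif3b as the transport kinesin with the fastest loss. Each reads 5′ to 3′ on the gene's strand, and capitals mark the motifs.
Kif18a: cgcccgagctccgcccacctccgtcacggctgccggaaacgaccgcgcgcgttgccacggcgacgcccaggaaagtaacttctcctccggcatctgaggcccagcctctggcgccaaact
Kif18b: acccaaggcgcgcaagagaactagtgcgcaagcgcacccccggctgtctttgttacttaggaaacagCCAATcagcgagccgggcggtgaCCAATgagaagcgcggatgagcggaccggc
Kifc1: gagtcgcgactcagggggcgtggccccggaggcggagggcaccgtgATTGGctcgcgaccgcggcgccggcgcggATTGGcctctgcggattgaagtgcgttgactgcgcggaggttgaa
Kif15: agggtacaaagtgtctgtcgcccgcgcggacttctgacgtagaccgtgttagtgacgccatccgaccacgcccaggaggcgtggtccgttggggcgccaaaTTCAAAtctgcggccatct
Kif11: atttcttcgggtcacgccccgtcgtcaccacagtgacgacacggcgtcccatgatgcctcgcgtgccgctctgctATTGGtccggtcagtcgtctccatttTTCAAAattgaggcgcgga
Kif3b: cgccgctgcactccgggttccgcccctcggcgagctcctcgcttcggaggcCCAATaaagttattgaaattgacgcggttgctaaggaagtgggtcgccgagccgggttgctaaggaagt

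These stretches lie at chr2:109280618-109280737 (plus strand), chr11:102925125-102925244 (minus), chr17:33890634-33890753 (minus), chr9:122950961-122951080 (plus), chr19:37376262-37376381 (plus) and chr2:153291296-153291415 (plus). CCAAT letters begin 53 and 30 bases before the start of Kif18b, 74 and 45 before Kifc1, 45 before Kif11 and 69 before Kif3b. TTTGAA letters begin 19 bases before the start in both Kif15 and Kif11, and a further match in Kif15 lies 234 bases before it. Kif18a, with the shortest half-life, held neither motif within 250 bases. Kif18b and Kifc1, with half-lives of 74.0 and 74.3 min, held CCAAT only, and Kif11, with the longest called half-life of the mitotic class, held both. Of the other called mitotic kinesins, Kif20b, with 99.7 min, also held neither motif, and Kif14, with 80.3 min, was counted with both. Kif15 and Kif2c, with 78.1 and 87.2 min, held TTTGAA only. A relation between motifs and half-lives was not tested. A match is a run of letters and was not tested for binding.

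Of 34 spindle and cytokinesis genes that work with mitotic kinesins, all tested, 11 lost label (32.4% against 52.0% of all genes) and none rose, with a median rate of 0.181 per h. Sgo1 and Sgo2a, protectors of centromere cohesion, had half-lives of 52.7 and 81.7 min, and the kinase gene Aurka had 84.3 min. Tpx2, which activates Aurora A on the spindle, missed the test, with a share of 37.5% at 0 min and 31.4% at 150 min (limma adjusted p = 0.625). Cenpe, itself a kinesin of the kinetochore under another symbol, had 41.1% at 0 min and 25.8% at 150 min and missed it too (limma adjusted p = 0.159).

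Of 36 tested genes for cargo adaptors, light chains, dynein and dynactin, 18 lost label (50.0%) and none rose, with a median of 0.214 per h. The dynein chain gene Dync1li2 had a half-life of 72.5 min, the dynein adaptor Bicd1 75.0 min and the kinesin light chain Klc1 136 min. Kifap3, the third subunit of the kinesin-2 motor, had shares of 14.6% at 0 min and 18.0% at 150 min and missed the test (limma adjusted p = 0.495), as Kif3a did. Of 15 tested tubulin genes, which encode the track itself, 4 lost label (26.7%): Tube1, Tubd1, Tubb3 and Tubb4b, with half-lives of 87.3, 97.3, 149 and 153 min. Their median rate was 0.089 per h, below those of the 3 kinesin classes.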

How the data were processed

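Nuclear SLAM-seq values were analysed for 6 libraries, 1 per washout time. Per the submitters' processing notes, the aligner was STAR 2.5.2b and the build mm10; counting program, annotation and use of strand were points not given in the sources used here. As named per the file headers, the deposited table gives raw read counts per gene, numbers of T>C conversions and covered T positions, and the labelled fraction as a posterior mean, mode and 5% and 95% quantiles. Column names carry numbers without a unit; each was read as the washout time in a sample title without its shared ending, and an absent number as 0 min. All slopes rest on this.

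Slopes on time (4 residual degrees of freedom) of the natural log of the fraction or T>C rate were fitted where a gene's mean was at least 100 reads, with values above 0 in all libraries, with limma 3.58.1 (trended prior variance). Slopes of total counts came from edgeR 4.0.16 (quasi-likelihood, TMM, filterByExpr) and, as an alternative, DESeq2 1.42.0, in R 4.3.3. P-values were adjusted by Benjamini-Hochberg over all genes, with a threshold of 0.05. They measure the scatter of 6 libraries about a line, not a spread between cultures. Decay rate is the negative slope and half-life ln 2 over that rate. Gene positions come from the GENCODE M21 annotation of mm10.

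The members and lists were chosen with earlier results of these data known. Values in every library are given for the 4 members with most reads per class, called members with the 2 shortest or 2 longest half-lives of a class, and uncalled members with at least 1000 reads; Kif1a, Kif3a, Kif5c, Kif15 and the paralogue pairs were added after their values were seen. Alternatives left out libraries, exchanged the 30 and 60 min times, and changed weights, scale, filter or normalization. The scripts were tested on simulated data.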

Additional observations from a re-analysis of the deposited data

How the results depend on the processing

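No paired analysis was possible because there was 1 library at each time. The count of kinesins that lost label (20) was 8 to 21 when single libraries were left out and 8 with posterior weights. Over all genes the called share (52.0%) was 31.1% to 55.4% and 29.7% in these settings. The count for the T>C rate (25) was 1 to 30 with libraries left out, beside 9.43% to 78.8% of all genes (69.0% with all libraries). The lowest of each came without the 150 min library and the highest share of all genes without the 60 min library. For total reads, edgeR's 0 (0% of all genes) became 10 without the 60 min library (9.19%; 0 to 10 over all libraries left out). It became 13 with the 30 and 60 min times exchanged (18.3%), 6 without both libraries (3.63%) and 3 without a filter on low counts (1.71%). DESeq2 gave 5 (4.53%). The median mitotic rate (0.417 per h) was 0.285 to 0.548 with libraries left out, 0.225 with posterior weights and 0.187 as labelled abundance. The median transport rate (0.178 per h) was 0.0777 to 0.254 with libraries left out, 0.0884 with posterior weights and 0.192 as labelled abundance. Single genes kept their direction and their side of the threshold in 366 cases, fell short in 49, newly passed in 6 and turned in 4. The 4 were Kif1a and Kif5b as labelled abundance (0.0552 and -0.0583 per h), and Kif21a with posterior weights (-0.00311) and without the 150 min library (-0.0243 to 0.175 over all libraries left out). Among pairs, Kif1b minus Kif1c (-0.0192 to 0.0333), Kif5a minus Kif5c (-0.128 to 0.0665) and Kif26a minus Kif26b (-0.0706 to 0.0767) changed sign with a library left out, an alternative chosen after seeing the data. The cause of these changes was not tested. Depth limits Kif28, Kif5a, Kif7 and Kif26b, with 108 to 232 reads on average.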
